A study of Mus musculus with 4 samples.

Results

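The genes described here are 10 regulators of chromatin with known roles in muscle, chosen by symbol: Smyd1, Smarcd3, Ezh1, Ezh2, Hdac4, Hdac5, Hdac7, Hdac9, Carm1 and Prmt5. All 10 were found among the 49585 genes listed in the count files, and all 10 passed the filter on low counts, which left 15886 genes to test. Their RNA was measured by strand-specific mRNA sequencing in C2C12, a mouse (C3H) myoblast line that fuses into multinucleated myotubes when serum is lowered. One group carried a retrovirus that overexpresses C/EBPβ, a leucine zipper transcription factor best known from fat cell differentiation, and the other carried the empty vector pLXSN. Both groups shared every other step: selection of pooled cells in G418 at 1200 µg/ml for 7 days, 2 days of proliferation, and 2 days in 2% horse serum. Each group had 2 libraries. Nothing in the labels says that they were separate cultures, so p-values cover only the spread among these libraries, and that spread may be technical. A pool of resistant cells is a mixture of integrations and not 1 clone, and the cells are a culture of differentiating myoblasts, not muscle tissue.

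Chromatin regulators set which muscle genes can be transcribed when a myoblast leaves the cell cycle. SWI/SNF (BAF) remodelling complexes move nucleosomes at muscle promoters, Polycomb repressive complex PRC2 places a silencing methyl mark on histone H3, and class IIa histone deacetylases bind MEF2 transcription factors and keep their targets repressed until kinases send the deacetylases out of the nucleus. Arginine methyltransferases such as Carm1 and Prmt5 act as partners of the myogenic transcription factors, and Smyd1 is a methyltransferase of striated muscle needed for sarcomere assembly.

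The libraries held 50493417 and 36461091 fragments assigned to genes in C/EBPβ-overexpressing cells, against 45448661 and 51537847 in empty-vector cells. Cebpb itself was counted at 502 and 442 CPM in overexpressing cells, against 42.7 and 41.3 CPM in empty-vector cells, where CPM sets the fragments of a gene against its library's TMM-scaled total. Its log2 fold change was 3.49 ± 0.11 (SE; adjusted p = 9.03e-07, edgeR's quasi-likelihood test with Benjamini-Hochberg adjustment over all genes tested, as for every adjusted p given here). The muscle identity of the cells was visible in Myod1, Myog and Des, at means of 145, 602 and 1632 CPM in overexpressing cells and 217, 1647 and 3032 CPM in empty-vector cells. The comparison called 43.2% of all genes tested, 22.3% higher and 20.9% lower, and in 75.1% of them the groups did not overlap in CPM.

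Of the 10 regulators, 7 passed an adjusted p of 0.05: Hdac7 and Ezh1 rose, and Smyd1, Hdac9, Ezh2, Prmt5 and Smarcd3 fell. Over all genes tested 43.2% passed, and the counts of every gene list below are to be read beside that share. Hdac4, Hdac5 and Carm1 did not pass. The groups did not overlap in CPM for any of the 10, a pattern shared by 75.1% of all genes tested. The median log2 fold change of the 10 genes was -0.27, against 0.01 over all genes tested, and the fold changes ran from -1.21 for Smyd1 to 0.70 for Hdac7. Only Smyd1 was called with a change of at least 2-fold. Without empty-vector replicate 2 the genes that rose numbered 1, Hdac7, and the count that fell ranged from 4 to 5 over the fits that left out a library.

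**Figure D1:**
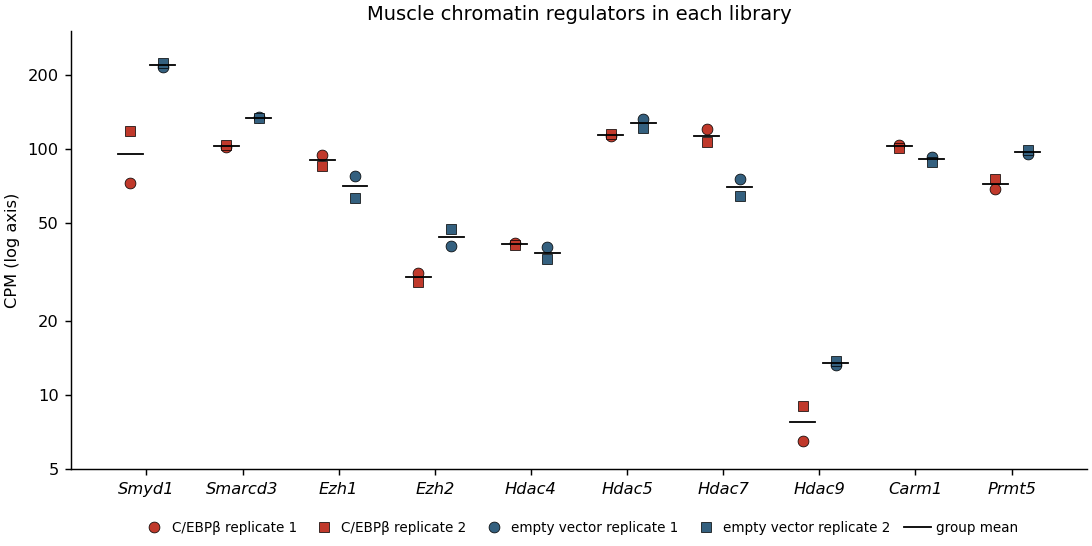
Level of each regulator in each library, in CPM on a log axis, with C/EBPβ-overexpressing libraries to the left of empty-vector libraries and black lines at the group means (n = 2 each). Smyd1 was at 72.5 and 118 CPM in overexpressing cells, below 215 and 223 CPM in empty-vector cells, and its overexpressing libraries lay farther apart than those of the other 9 genes.

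Levels of different genes were compared as TPM, which divides by gene length. In overexpressing cells Carm1 (mean 73.3 TPM), Smyd1 (72.5), Hdac7 (71.2) and Smarcd3 (69.8) stood close together, with ranges that overlapped between Carm1, Smyd1 and Hdac7, and with Smarcd3 inside the ranges of Smyd1 and Hdac7. Prmt5 followed at 63.0 TPM, inside the range of Smyd1, then Hdac5 at 44.9, Ezh1 at 42.1, Ezh2 at 15.7, Hdac4 at 9.02 and Hdac9 at 1.84 TPM. In empty-vector cells the order was led by Smyd1 at 156 TPM, with Smarcd3 at 84.7, Prmt5 at 79.3, Carm1 at 60.5, Hdac5 at 46.9, Hdac7 at 40.9, Ezh1 at 30.6, Ezh2 at 21.3, Hdac4 at 7.75 and Hdac9 at 2.98 TPM. No neighbours overlapped in that second order, although Hdac5 in empty-vector replicate 2 and Hdac7 in replicate 1 both rounded to 44.5 TPM. The lengths used are those of all annotated exons of a gene, so genes with many alternative exons, such as Hdac4 and Hdac9, read lower than their main transcripts would.

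Smyd1 (ENSMUSG00000055027.17, GRCm38 chr6:71213940-71322233, minus strand) encodes a SET and MYND domain methyltransferase of heart and skeletal muscle. It was counted at 72.5 and 118 CPM in overexpressing cells, against 215 and 223 CPM in empty-vector cells. Both overexpressing libraries lay below both empty-vector libraries, with replicate 1 the lowest. Smyd1 fell 2.30-fold (log2 fold change -1.21 ± 0.24 SE, adjusted p = 0.0139). Left without empty-vector replicate 1 or 2, the log2 fold change stayed near this value at -1.24 and -1.18 but did not pass. Only overexpressing cells have replicates in those fits, and their libraries lay farther apart than the empty-vector libraries. Leaving out each library in turn gave -1.61 to -0.89. The difference between the overexpressing libraries, 0.70 on the log2 scale in favour of replicate 2, ran alongside that of 21 muscle differentiation genes, whose median difference was 0.77 with all 21 higher in replicate 2. The ratio of Smyd1 to Myog, the gene of the transcription factor myogenin, was 0.0469 and 0.0557 on the TPM scale in overexpressing cells, against 0.0451 and 0.0425 in empty-vector cells.

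The RefSeq window of 250 bases before and 50 bases from the start of Smyd1 (GRCm38.p6, chr6:71262232-71262531, minus strand) is shown because this gene had the largest fall. It lies inside the gene's GENCODE span, whose 5′ end is farther upstream. None of the letters searched in these windows occurred in it: TTGCNNAA for C/EBP, CAGCTG and the wider CANNTG for E-boxes, the MEF2 consensus, and TTTCCCGC or TTTGGCGC for E2F, on both strands.
Smyd1 promoter: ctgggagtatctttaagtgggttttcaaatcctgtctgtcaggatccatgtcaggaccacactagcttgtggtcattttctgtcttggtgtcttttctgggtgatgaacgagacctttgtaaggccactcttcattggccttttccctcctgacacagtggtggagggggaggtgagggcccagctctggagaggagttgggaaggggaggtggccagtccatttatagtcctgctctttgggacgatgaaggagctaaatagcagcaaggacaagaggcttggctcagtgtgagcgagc
Windows were available for 9 of the 10 regulators, 13 windows in all, and are read against all 32851 windows of the same length. TTGCNNAA occurred in 0 of the 13, against 10.8% of all windows. CAGCTG occurred in 4 of the 13, against 16.3%, and CANNTG, which includes CAGCTG, in 8 of the 13, against 72.3%. These counts describe letters in short windows and say nothing of where a factor binds.

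Among 4 other SMYD genes and Naca, 2 rose and 1 fell (median log2 fold change 0.08). Smyd4 rose to 42.0 and 43.4 CPM in overexpressing cells, against 24.5 and 24.0 CPM in empty-vector cells (log2 fold change 0.82, adjusted p = 2e-04). Smyd2, which methylates p53 and other non-histone proteins as well as histones, rose by a log2 fold change of 0.56 (adjusted p = 0.00132). Smyd3 and Smyd5 did not pass, at log2 fold changes of -0.21 and 0.08. Naca, whose long muscle form is a binding partner of Smyd1, fell to 413 and 494 CPM in overexpressing cells, against 859 and 971 CPM in empty-vector cells (log2 fold change -1.01, adjusted p = 6.34e-04), a count that does not separate the muscle form from the general one.

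Smarcd3 (ENSMUSG00000028949.13, chr5:24590818-24624411, minus strand) encodes BAF60c, the SWI/SNF subunit that binds MyoD at muscle promoters before differentiation. It was counted at 102 and 104 CPM in overexpressing cells, against 134 and 133 CPM in empty-vector cells. The libraries of each group lay close together and the groups stood apart. Smarcd3 fell 1.30-fold, at a log2 fold change of -0.38 and an SE of 0.08 (adjusted p = 0.00513), and it passed under each of the 12 alternatives. Of its exon bases, 48.2% overlap Chpf2 on the opposite strand, and the authors' counting used strand.

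Smarcd1 and Smarcd2 encode BAF60a and BAF60b, the alternative subunits that occupy the same place in the complex. Smarcd2 rose by a log2 fold change of 0.52 (adjusted p = 0.00164), whereas Smarcd1, at 0.27, did not pass (adjusted p = 0.0676). Smarcd1 passed under some alternatives, among them leaving out overexpressing replicate 2 (adjusted p = 0.00472) and applying no filter on low counts (0.0155). Smarcd3 supplied 35.2% and 38.7% of the summed TPM of the 3 genes in overexpressing cells, against 48.9% and 51.1% in empty-vector cells. The shares did not overlap. With 2 libraries in each group an exact permutation test, 2-sided, cannot give a p below 1 in 3, so this share and the other shares and ratios below carry no test.

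Of 23 other BAF genes tested, 3 rose and 7 fell, with a median log2 fold change of -0.02, where 43.2% of all genes tested were called. The ATPase genes moved in opposite directions. Smarca2 (BRM) rose to 69.4 and 60.0 CPM in overexpressing cells, against 21.1 and 15.4 CPM in empty-vector cells (log2 fold change 1.83 ± 0.16 SE, adjusted p = 3.56e-04). Smarca4 (BRG1) fell to 185 and 193 CPM in overexpressing cells, against 241 and 237 CPM in empty-vector cells (log2 fold change -0.34, adjusted p = 0.0127), but did not pass without empty-vector replicate 1 or 2 (adjusted p = 0.0624 and 0.0618). Actl6a fell by 0.38 on the log2 scale (adjusted p = 0.00454). The count of BAF genes that fell was 4, 1 and 2 without overexpressing replicate 1, empty-vector replicate 1 and empty-vector replicate 2, and the count that rose was 2 in each of those fits. With library sizes alone, 3 rose and 4 fell.

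Ezh1 and Ezh2 encode the alternative catalytic subunits of PRC2. In muscle lineages Ezh2 is known as the form of proliferating myoblasts and Ezh1 as the form that persists in differentiated cells. Ezh2 (ENSMUSG00000029687.16, chr6:47530139-47595341, minus strand) was counted at 31.4 and 28.8 CPM in overexpressing cells, against 40.5 and 47.2 CPM in empty-vector cells. Ezh2 fell 1.46-fold, at a log2 fold change of -0.54 ± 0.10 (SE), with an adjusted p of 0.00355, and passed under all 12 alternatives.

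Ezh1 (ENSMUSG00000006920.14, chr11:101191115-101226463, minus strand) moved the other way, at 94.7 and 85.5 CPM in overexpressing cells, against 77.3 and 63.4 CPM in empty-vector cells. The rise of Ezh1 was 1.28-fold, or 0.36 ± 0.11 (SE) on the log2 scale (adjusted p = 0.0313). This call rested on empty-vector replicate 2, the lowest library: without it the log2 fold change was 0.22 and did not pass (adjusted p = 0.183). The TPM of Ezh1 exceeded that of Ezh2 by 2.71 and 2.66 times in overexpressing cells, against 1.71 and 1.21 times in empty-vector cells. The mean ratio was 1.84 times as high in overexpressing cells, and 1.57 to 2.23 times as high when each library was left out in turn. Summed over both genes, CPM was 126 and 114 in overexpressing cells and 118 and 111 in empty-vector cells, and these sums overlapped. On the TPM scale the mean sum was 1.11 times as high in overexpressing cells as in empty-vector cells, without overlap.

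The Ezh2 window (RefSeq, GRCm38.p6, chr6:47594981-47595280, minus strand) is shown because it held the E2F letters TTTGGCGC, in capitals, at bases 4 to 11 counted from the start as base 1. These letters or TTTCCCGC occurred in 1.56% of all windows and in 1 of the 13 windows of the regulators.
Ezh2 promoter: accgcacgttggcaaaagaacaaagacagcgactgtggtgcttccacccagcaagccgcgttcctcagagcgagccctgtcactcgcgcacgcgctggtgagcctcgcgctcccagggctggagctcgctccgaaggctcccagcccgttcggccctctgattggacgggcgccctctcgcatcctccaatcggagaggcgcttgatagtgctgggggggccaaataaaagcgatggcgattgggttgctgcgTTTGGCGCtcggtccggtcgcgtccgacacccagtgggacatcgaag
Ezh2 is expressed with the cell cycle in many cells, and in these libraries 18 of 20 proliferation genes fell and none rose (median log2 fold change -1.04). Rrm2, a subunit of ribonucleotide reductase, fell by 1.11 on the log2 scale, and Mcm5 and Mcm2, of the replicative helicase, fell by 1.11 and 0.91. In empty-vector replicate 2 all 20 proliferation genes were higher than in replicate 1, by a median of 0.24 on the log2 scale, and Ezh2 was higher there by 0.22. The part of these genes in the fall of Ezh2 was not tested. Fewer dividing cells and less of each RNA per cell cannot be told apart in bulk libraries, for these genes or for the muscle genes.

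Among 10 other PRC2 genes tested, 2 rose and 3 fell (median log2 fold change -0.15). Of the core subunits that PRC2 needs beside Ezh1 or Ezh2, Suz12 fell to 53.9 and 52.8 CPM in overexpressing cells, against 60.2 and 67.9 CPM in empty-vector cells (log2 fold change -0.26, adjusted p = 0.0339). Eed did not pass, at -0.19. The histone binding subunit Rbbp4 fell by 0.34 on the log2 scale (adjusted p = 0.0192), and Phf19, a Polycomb-like accessory subunit, fell by 1.07 (adjusted p = 9.78e-04). Jarid2, which recruits PRC2, rose by a log2 fold change of 0.44 (adjusted p = 0.00817), and Epop, an accessory subunit, by 0.49 (adjusted p = 0.0489).

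Several of these PRC2 calls changed with the libraries or the method. Without empty-vector replicate 2, Suz12, Rbbp4, Jarid2 and Epop did not pass (adjusted p = 0.224, 0.107, 0.0537 and 0.113), and without empty-vector replicate 1, Rbbp4 and Epop did not (0.0773 and 0.23). Epop also missed without overexpressing replicate 1 (0.169), with median-ratio size factors (0.0508) and in DESeq2 (0.104), and Suz12 missed with library sizes alone (0.0841) and in DESeq2 (0.054). Phf19 passed in each of these fits. The count of PRC2 genes that rose was 1, 3, 1 and 0 without overexpressing replicates 1 and 2 and empty-vector replicates 1 and 2, and the count that fell was 3, 3, 2 and 1.

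Neither demethylase of the PRC2 mark passed the test. Kdm6a (UTX) was at 43.7 and 46.6 CPM in overexpressing cells and 45.5 and 43.3 CPM in empty-vector cells, with overlapping groups. Kdm6b (JMJD3) was at 139 and 138 CPM in overexpressing cells and 141 and 137 CPM in empty-vector cells, also with overlap. Of 8 demethylase and partner genes tested, 1 fell, Wdr5 (log2 fold change -0.26, adjusted p = 0.0196), and none rose. Wdr5 did not pass without overexpressing replicate 1, empty-vector replicate 1 or empty-vector replicate 2 (adjusted p = 0.0893, 0.0541 and 0.107), which left 0 genes called in the list.

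**Figure D2:**
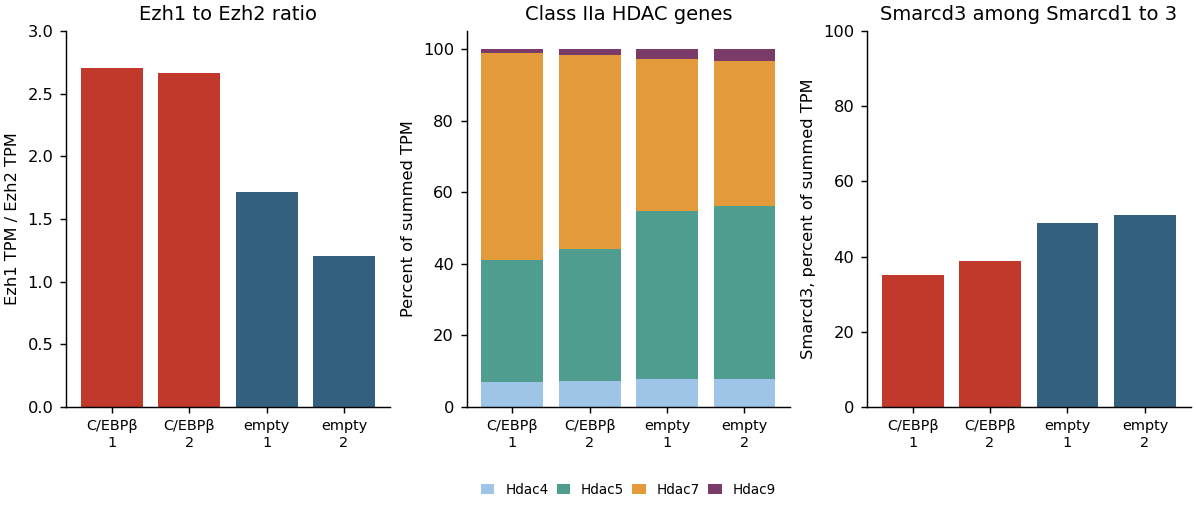
Balance between related genes in each library on the TPM scale: the ratio of Ezh1 to Ezh2 (left), the percent of summed TPM supplied by each class IIa HDAC gene (middle), and the percent that Smarcd3 supplied of Smarcd1, Smarcd2 and Smarcd3 together (right). The Ezh1 to Ezh2 ratio was 2.71 and 2.66 in C/EBPβ-overexpressing libraries, above 1.71 and 1.21 in empty-vector libraries, and the largest class IIa share was that of Hdac7 in overexpressing libraries (57.8% and 54.2%) and of Hdac5 in empty-vector libraries (47.0% and 48.4%).

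The class IIa histone deacetylases Hdac4, Hdac5, Hdac7 and Hdac9 have little deacetylase activity of their own and act with HDAC3 and its corepressor complex. Of these 4 genes, 1 rose, 1 fell and 2 did not pass. Hdac7 (ENSMUSG00000022475.18, chr15:97792664-97844502, minus strand), known from endothelial cells and thymocytes as well as muscle, was counted at 120 and 106 CPM in overexpressing cells, against 75.3 and 64.3 CPM in empty-vector cells. The rise of Hdac7 was 1.62-fold, or 0.70 ± 0.10 (SE) on the log2 scale (adjusted p = 0.00125), the largest rise among the 10 regulators, and passed under all 12 alternatives.

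Hdac9 (ENSMUSG00000004698.10, chr12:34047580-34917095, minus strand) was the least abundant of the 10, at 6.51 and 9.03 CPM in overexpressing cells, against 13.3 and 13.7 CPM in empty-vector cells. These values rest on 340 and 330 fragments in overexpressing cells and 591 and 694 in empty-vector cells. The fall of Hdac9 was 1.74-fold, at a log2 fold change of -0.81 ± 0.16 (SE) and an adjusted p of 0.00547, and it passed under all 12 alternatives. Its overexpressing replicate 2 was higher than replicate 1 by 0.44 on the log2 scale, the widest gap after Smyd1 and in the same library as the higher muscle genes. Hdac9 also makes MITR, a muscle and brain splice form without the deacetylase domain that still binds MEF2, and counts per gene do not separate the forms.

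Hdac5 (ENSMUSG00000008855.17, chr11:102194432-102230166, minus strand) was at 112 and 115 CPM in overexpressing cells, against 133 and 122 CPM in empty-vector cells. The log2 fold change of Hdac5, -0.16, did not pass (adjusted p = 0.147), with a 95% interval of -0.35 to 0.03. On the TPM scale its groups overlapped, at 44.94 and 44.95 in overexpressing cells and 49.34 and 44.51 in empty-vector cells. Hdac4 (ENSMUSG00000026313.16, chr1:91928779-92195699, minus strand) was at 41.4 and 40.7 CPM in overexpressing cells, against 40.1 and 35.6 CPM in empty-vector cells. Its log2 fold change of 0.12 did not pass either (adjusted p = 0.311; 95% interval -0.08 to 0.32). Neither gene passed under any of the 12 alternatives.

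Hdac7 supplied 57.8% and 54.2% of the summed class IIa TPM in overexpressing cells, against 42.3% and 40.5% in empty-vector cells. For Hdac5 the shares were 34.1% and 36.8% in overexpressing cells, against 47.0% and 48.4% in empty-vector cells. Hdac4 supplied 6.97% and 7.24% in overexpressing cells, against 7.88% and 7.85% in empty-vector cells. Hdac9 supplied 1.18% and 1.73% in overexpressing cells, against 2.81% and 3.26% in empty-vector cells. The ratio of Hdac7 to Hdac5 was thus 1.70 and 1.47 in overexpressing cells and 0.902 and 0.838 in empty-vector cells. Their order on the TPM scale was opposite in the groups, and it depends on the exon lengths used. In CPM, which does not divide by length, the ratio was 1.07 and 0.926 in overexpressing cells and 0.568 and 0.528 in empty-vector cells. The summed TPM of the 4 genes was 132 and 122 in overexpressing cells, against 105 and 92.0 in empty-vector cells, a ratio of 1.29 that came to 1.11 on the CPM scale.

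The Hdac5 and Hdac9 windows (RefSeq, GRCm38.p6, both on the minus strand) are shown because they held letters of MEF2 or MyoD-type sites, in capitals. The Hdac5 window (chr11:102230123-102230422) held the MEF2 consensus at bases -20 to -11 before the start, which occurred in 3.19% of all windows and in 1 of the 13 windows of the regulators. Both Hdac9 windows held CAGCTG, at bases -89 to -84 of the first (chr12:34917046-34917345) and -183 to -178 of the second (chr12:34528840-34529139), an internal start.
Hdac5 promoter: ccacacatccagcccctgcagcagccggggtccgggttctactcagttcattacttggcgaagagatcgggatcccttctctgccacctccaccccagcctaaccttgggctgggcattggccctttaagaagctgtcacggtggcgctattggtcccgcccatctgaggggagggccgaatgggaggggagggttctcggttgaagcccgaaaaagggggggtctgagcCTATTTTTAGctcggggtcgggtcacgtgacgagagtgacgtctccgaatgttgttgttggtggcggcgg
Hdac9 promoter, first start: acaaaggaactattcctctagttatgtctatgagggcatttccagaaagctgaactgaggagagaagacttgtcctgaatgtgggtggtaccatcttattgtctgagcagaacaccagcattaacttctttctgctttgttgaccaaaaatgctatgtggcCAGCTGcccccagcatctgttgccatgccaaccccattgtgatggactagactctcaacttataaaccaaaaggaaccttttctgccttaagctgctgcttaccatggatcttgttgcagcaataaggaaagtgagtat
Hdac9 promoter, second start: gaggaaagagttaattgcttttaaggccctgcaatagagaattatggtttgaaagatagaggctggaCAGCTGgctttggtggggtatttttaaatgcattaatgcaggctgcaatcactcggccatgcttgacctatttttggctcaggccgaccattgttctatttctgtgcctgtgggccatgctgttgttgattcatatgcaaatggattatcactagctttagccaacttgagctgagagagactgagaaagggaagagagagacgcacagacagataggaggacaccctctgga
The other CAGCTG matches were in Smarcd3 and in 1 window of Hdac7. Of the genes with these letters, Hdac9 and Smarcd3 fell and Hdac7 rose.

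MEF2 factors are the main binding partners of class IIa deacetylases in muscle, and all 3 that could be tested fell. Mef2c fell to 12.4 and 27.1 CPM in overexpressing cells, against 127 and 133 CPM in empty-vector cells (log2 fold change -2.73 ± 0.41 SE, adjusted p = 0.0100). Mef2a fell to 177 and 226 CPM in overexpressing cells, against 405 and 429 CPM in empty-vector cells, and Mef2d to 160 and 189 CPM in overexpressing cells, against 351 and 335 CPM in empty-vector cells (log2 fold changes -1.05 and -0.97, adjusted p = 5.28e-04 and 3.13e-04). Mef2c did not pass without empty-vector replicate 1 or 2 (adjusted p = 0.191 and 0.167), nor with no filter on low counts (0.119). Mef2b had too few fragments to test.

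Kinases that phosphorylate class IIa deacetylases moved in both directions, with 6 of 17 higher and 6 lower (median log2 fold change 0.11). Among those that rose, Prkd1, which encodes protein kinase D1, was at 1.21 and 2.93 CPM in overexpressing cells, against 0.0898 and 0.138 CPM in empty-vector cells, a difference that rests on 4 and 7 fragments in empty-vector cells. Camk1d rose by a log2 fold change of 0.96, Sik2 by 0.74 and Prkd2 by 0.62 (adjusted p = 0.00275, 0.00383 and 0.00841), and Prkd2 missed without empty-vector replicate 2 (0.067). Sik1, a salt-inducible kinase whose gene is induced by cAMP signalling, fell to 107 and 126 CPM in overexpressing cells, against 198 and 194 CPM in empty-vector cells (log2 fold change -0.75, adjusted p = 7.39e-04). Prkaa2, the AMPK catalytic subunit of muscle, fell by 1.22 and Mark3 by 0.47 on the log2 scale (adjusted p = 0.00234 and 0.00231). Camk2a fell to 12.9 and 25.6 CPM in overexpressing cells, against 95.2 and 101 CPM in empty-vector cells (log2 fold change -2.36, adjusted p = 0.0103), but did not pass without empty-vector replicate 1 or 2 (adjusted p = 0.174 and 0.154) or with no filter on low counts (0.12). Without empty-vector replicate 2 the list held 4 higher and 4 lower genes, and without empty-vector replicate 1 it held 6 and 4.

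The 14-3-3 proteins hold phosphorylated class IIa deacetylases in the cytoplasm. Of 7 tested, 3 fell and none rose (median -0.16). Ywhae, Ywhag and Ywhaz fell by 0.38, 0.38 and 0.34 on the log2 scale (adjusted p = 0.0259, 0.0195 and 0.0248). All 3 missed without empty-vector replicate 2 (adjusted p = 0.147, 0.100 and 0.185), and Ywhae and Ywhag missed without overexpressing replicate 1 (0.0733 and 0.0576) and without empty-vector replicate 1 (0.0878 and 0.0778).

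Within the HDAC3 corepressor complex, 2 of 6 genes rose and 2 fell (median log2 fold change 0.01). Hdac3 rose to 111 and 103 CPM in overexpressing cells, against 84.3 and 77.9 CPM in empty-vector cells (log2 fold change 0.41, adjusted p = 0.00563). Tbl1x rose by 0.33 (adjusted p = 0.0114), whereas its paralog Tbl1xr1 fell by 0.31 (0.0249). Tbl1xr1 missed without overexpressing replicate 1, empty-vector replicate 1 and empty-vector replicate 2 (adjusted p = 0.177, 0.0582 and 0.119), and 0 genes of the complex fell in those fits. Tbl1x missed without empty-vector replicate 2 (0.0903).

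Among 12 class I and other deacetylase genes, which include Hdac3, 4 rose and none fell (median 0.06). Hdac8 rose to 13.4 and 13.7 CPM in overexpressing cells, against 8.28 and 8.35 CPM in empty-vector cells (log2 fold change 0.70, adjusted p = 0.00191). Hdac10 and Hdac1 rose by log2 fold changes of 0.46 and 0.32 (adjusted p = 0.0133 and 0.0203). Both missed without empty-vector replicate 2 (0.0899 and 0.136), which left 2 genes called, Hdac3 and Hdac8.

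Carm1 (ENSMUSG00000032185.15, chr9:21546894-21592623, plus strand) encodes the arginine methyltransferase PRMT4, a coactivator of MEF2 and MyoD. It was at 104 and 101 CPM in overexpressing cells, against 92.6 and 88.7 CPM in empty-vector cells. The groups did not overlap, but the log2 fold change of 0.18 ± 0.08 (SE) did not pass (adjusted p = 0.0963). It passed with library sizes alone as the scaling (log2 fold change 0.23, adjusted p = 0.0428) and under none of the other 11 alternatives. Yipf2 overlaps 21.1% of the exon bases of Carm1 on the opposite strand.

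Prmt5 (ENSMUSG00000023110.12, chr14:54507187-54517525, minus strand) encodes the main symmetric arginine methyltransferase, needed for activation of myogenin in cultured myoblasts. It was at 68.4 and 75.3 CPM in overexpressing cells, against 95.4 and 98.5 CPM in empty-vector cells. Prmt5 fell 1.35-fold, by 0.43 ± 0.08 (SE) on the log2 scale, with an adjusted p of 0.00378, and passed under all 12 alternatives. Its obligate partner Wdr77 (MEP50) fell by 0.27 on the log2 scale (adjusted p = 0.0235), the single call among 4 Prmt5 partners (median -0.21). Wdr77 missed without overexpressing replicate 1, empty-vector replicate 1 and empty-vector replicate 2 (adjusted p = 0.122, 0.0562 and 0.138) and with library sizes alone (0.0538). Clns1a, the partner for splicing factor substrates, was at -0.21 and did not pass, except without overexpressing replicate 2 (-0.32, adjusted p = 0.0409).

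Of 6 other arginine methyltransferase genes tested, 1 rose and 2 fell (median -0.10). Prmt1, the main asymmetric enzyme, fell to 178 and 179 CPM in overexpressing cells, against 238 and 247 CPM in empty-vector cells (log2 fold change -0.44, adjusted p = 0.00401), close in size to the fall of Prmt5. Prmt2 fell by 0.34 (adjusted p = 0.00751), and Prmt3 rose by 0.35 (adjusted p = 0.0108). Prmt3 missed without overexpressing replicate 2, empty-vector replicate 1 or empty-vector replicate 2 (0.0738, 0.0515 and 0.0517), which left 0 genes higher in the list.

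**Figure D3:**
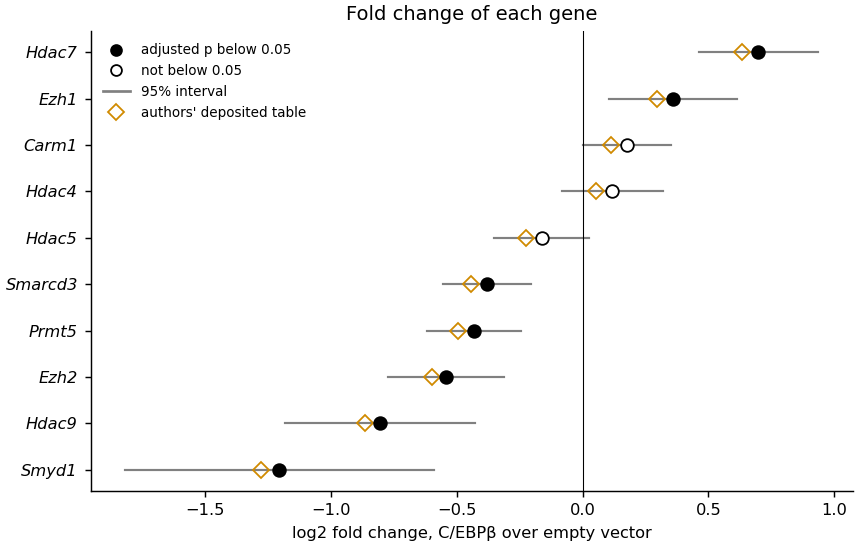
Log2 fold change of each regulator, C/EBPβ-overexpressing over empty-vector cells, with 95% intervals from edgeR's quasi-likelihood test (circles, filled where the adjusted p was below 0.05) and the value in the authors' deposited table (diamonds). Hdac7 at 0.70 and Smyd1 at -1.21 mark the ends, and each diamond lies on the same side of 0 as its circle.

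In the authors' deposited table the fold changes of all 10 regulators had the same sign as here, and 8 had an adjusted p below 0.05. These were the 7 called here and Hdac5, which the authors' deposited table gives at a log2 fold change of -0.22 with an adjusted p of 0.0314. The authors' deposited table lists Smyd1 at -1.28, Hdac9 at -0.86, Ezh2 at -0.60, Hdac7 at 0.63 and Carm1 at 0.11. The mean normalised signal in the authors' deposited table was 3982 for Smyd1 and 3351 for Ezh2, whereas the mean counts of the 4 libraries were 7240 and 1721. The ratio of these values ranged from 0.55 for Smyd1 to 1.95 for Ezh2 among the regulators, so libraries beyond these 4 may have entered that table. In the DESeq2 fit of these 4 libraries all 10 regulators lay above the authors' values by a similar small step. Among them, Hdac7 was at 0.69, Ezh2 at -0.55 and Smyd1 at -1.21. The shared signs were therefore not counted as a separate measurement.

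Enzymes outside these families were counted for comparison. Of 9 histone acetyltransferase genes, 3 rose and none fell (median 0.16), led by Kat6b at 71.1 and 64.6 CPM in overexpressing cells, against 35.9 and 33.1 CPM in empty-vector cells (log2 fold change 0.98, adjusted p = 1.03e-04). Kat2b (PCAF), a MyoD acetyltransferase, and its paralog Kat2a (GCN5) rose by log2 fold changes of 0.27 and 0.25 (adjusted p = 0.0193 and 0.0319). Both missed without overexpressing replicate 1 (0.102 and 0.188), empty-vector replicate 1 (0.069 and 0.0821) and empty-vector replicate 2 (0.103 and 0.155), leaving Kat6b as the 1 call, and Kat2a also missed in DESeq2 (0.0752).

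Of 18 other histone lysine methyltransferase and demethylase genes, 2 rose and 6 fell (median 0.05). Kmt2a (MLL1) rose by a log2 fold change of 0.58 (adjusted p = 9.45e-04). Suv39h1, which methylates heterochromatin and represses muscle genes with MyoD in myoblasts, fell by 0.59 (adjusted p = 0.00136), and Kmt5a, a histone H4 methyltransferase of dividing cells, fell by 0.48 (adjusted p = 0.00152). Without overexpressing replicate 2 the list had 4 genes higher.

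**Figure D4:**
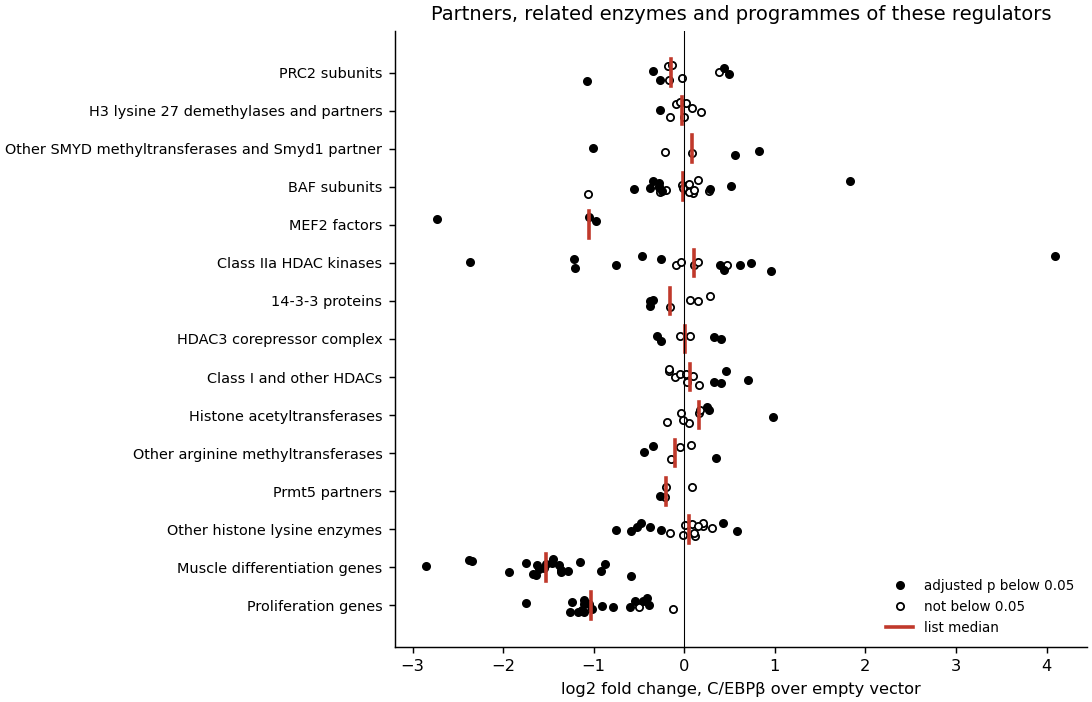
Log2 fold change of each tested gene in lists of partners, related enzymes, muscle differentiation and proliferation (circles, filled where the adjusted p was below 0.05), with list medians as red bars. The medians of muscle differentiation genes at -1.52, MEF2 factors at -1.05 and proliferation genes at -1.04 lie well below 0, whereas those of the other lists drawn lie between -0.21 and 0.16.

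Muscle differentiation genes differed between the same libraries. All 21 fell (median log2 fold change -1.52), and their summed CPM was 8820 to 15140 in overexpressing cells, against 33710 to 38420 in empty-vector cells. Myog fell to 509 and 696 CPM in overexpressing cells, against 1567 and 1728 CPM in empty-vector cells (log2 fold change -1.45, adjusted p = 4.47e-04), Mymx, the fusion micropeptide myomixer, fell by 1.37 and Myom2, a sarcomere M-band gene, by 1.15 on the log2 scale. Without empty-vector replicate 1 or 2 the count that fell was 11 and 7, although Myog, Mymx and Myom2 passed in each of those fits. The part of this difference in the values of Smyd1, Hdac9, Smarcd3 and the MEF2 genes was not tested.

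Markers of other cell types were counted at levels from 0 to well above those of the regulators. Of 10 endothelial markers, given beside the rise of Hdac7, 3 could be tested and 2 fell (median -1.31). That median rests on 3 genes near the floor. The 2 that fell, Cldn5 and Tek, had 7 and 8, and 17 and 5 fragments in overexpressing cells. In empty-vector cells they had 32 and 50, and 24 and 34, and they entered the test through that group, where they were higher. Their summed CPM was 2.14 to 2.43 in overexpressing cells, against 2.83 to 3.05 in empty-vector cells, Tie1 and Emcn were at 0 in every library, and Pecam1, Cdh5 and Kdr reached at most 0.23 CPM. Vwf, the most abundant of these markers, had a mean of 1.46 CPM in overexpressing cells and 1.25 CPM in empty-vector cells and did not pass. Tek, 1 of the 2 that fell, missed without overexpressing replicate 2, empty-vector replicate 1 and empty-vector replicate 2 (adjusted p = 0.110, 0.0698 and 0.193) and in DESeq2 (0.137), so that 1 endothelial marker fell in each fit without 1 of those libraries. Without overexpressing replicate 2, 1 marker was also higher: Pecam1, with 12 and 2 fragments in overexpressing cells, against 2 and 3 in empty-vector cells.

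Among 10 macrophage markers, 3 of 6 tested rose and 1 fell (median 0.83). The sum was 41.5 to 44.7 CPM in overexpressing cells, against 8.29 to 9.13 CPM in empty-vector cells, mostly from Lyz2, which encodes lysozyme, while Adgre1 and Fcgr1 were at 0. Lyz2 was at 28.4 and 26.1 CPM in overexpressing cells, against 0.135 and 0.0791 CPM in empty-vector cells. With 6 and 4 fragments in empty-vector cells, Lyz2 entered the test through overexpressing cells. Itgam, with 2 and 8 fragments in overexpressing cells, entered through empty-vector cells. The 1 that fell, Itgam, missed without overexpressing replicate 1 and either empty-vector replicate (adjusted p = 0.161, 0.069 and 0.145) and in DESeq2 (0.0995), which left 0 lower. All 5 adipocyte markers tested of 10 rose (median 1.48; sums of 72.1 to 93.1 CPM in overexpressing cells and 29.1 to 39.9 CPM in empty-vector cells). Of these, Plin1 and Fabp4 passed the filter on low counts only through overexpressing cells, so their direction was set by the filter. They had 43 and 24, and 131 and 58 fragments there, against 0 and 0, and 2 and 1 in empty-vector cells. Of the markers too low to test, Lep was at 0, and Adipoq, Cidec, Retn and Cfd reached at most 0.345 CPM. Cebpa, a fat cell relative of Cebpb, was the most abundant, at 59.3 and 45.4 CPM in overexpressing cells, against 22.9 and 14.8 CPM in empty-vector cells.

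Fibroblast markers, many of which myoblasts express, had 7 of 10 higher and 1 lower (median 0.93), with sums of 16990 to 17300 CPM in overexpressing cells and 5314 to 6472 CPM in empty-vector cells. Without overexpressing replicate 1 there were 2 lower. Col3a1 alone gave 12190 and 12140 CPM in overexpressing cells, against 3980 and 3128 CPM in empty-vector cells. Smooth muscle markers had 4 of 8 tested higher and 3 lower (median 0.64). Their sums were 4779 to 5765 CPM in overexpressing cells and 6800 to 6822 CPM in empty-vector cells. These sums include Des, given above for muscle identity and 1 of the 3 lower. Des was at 1482 and 1783 CPM in overexpressing cells, against 3045 and 3020 CPM in empty-vector cells. Among the 4 higher, Lmod1, Tagln and Cnn1 rose by log2 fold changes of 2.32, 1.36 and 4.35. Cnn1 and Rgs5, with 7 and 7, and 4 and 7 fragments in empty-vector cells, entered the test through overexpressing cells. The part of these markers in the results for Hdac7 and the other regulators was not tested.

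The gap between libraries of a group varied among the 10 regulators. Smarcd3, Carm1 and Hdac5 differed by at most 0.12 on the log2 scale between replicates of either group. Smyd1 and Hdac9 differed by 0.70 and 0.44 between the overexpressing libraries and by 0.06 and 0.05 between the empty-vector libraries. Ezh1, Ezh2 and Hdac7 differed more between the empty-vector libraries, by -0.28, 0.22 and -0.23 for replicate 2 minus replicate 1, than between the overexpressing libraries, by -0.15, -0.12 and -0.17.

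Profiles over the 4 libraries were compared by Euclidean distance of centred log2 CPM among the 11752 coding genes whose mean CPM was 1 or more. Closest to Hdac7 were Inpp1, an inositol phosphatase (distance 0.0207), Tns2, a focal adhesion protein (0.0235), and Slc29a3, a nucleoside transporter (0.0256). Closest to Smyd1 were Eno3, the muscle enolase (0.0595), Ano5, a muscle membrane protein (0.0651), and Alpk2, an alpha-kinase (0.0686). Ano5 and Alpk2, like Smyd1, did not pass without empty-vector replicate 1 (adjusted p = 0.17 and 0.155) or 2 (0.161 and 0.157). Over only 4 libraries many genes lie near any profile, so these names are a description.

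**Figure D5:**
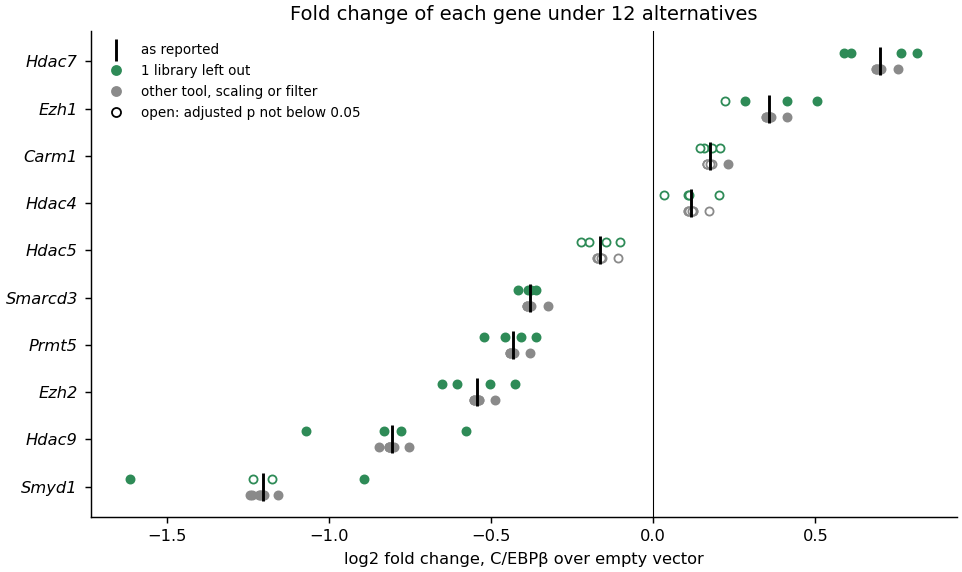
Log2 fold change of each regulator as reported (black bars), with 1 library left out (green) and with another tool, scaling, filter or a replicate block (grey), 12 alternatives in all; open circles did not pass an adjusted p of 0.05. Smyd1 ranged from -1.61 to -0.89 and Ezh1 from 0.22 to 0.51, and no regulator crossed 0.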

How the data were processed

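Stranded mRNA libraries were made from 4 samples of C2C12 cells, per the labels' protocols. Each library has a deposited file of raw counts, giving fragments per gene. HISAT2 2.0.4 was used for alignment to GRCm38 and featureCounts 1.4.6 for counting, per the submitters' processing notes, but the file headers name featureCounts 1.5.1, run on fragment pairs and the reverse strand with GENCODE M12. The authors also deposited a table of 18378 rows with a mean normalised signal. Log2 fold changes and their errors stand in the same deposited table, and a test score, a raw p-value and an adjusted one follow, per the file headers. The sources used here do not say which libraries entered it, and the notes name DESeq2 without a version. Its direction was read from Cebpb.

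The members and gene lists were chosen with earlier results of these data known. A GENCODE table gave symbols for 49326 of 49585 identifiers. In edgeR 4.0.16 (R 4.3.3), genes were filtered with filterByExpr (minimum count 10, minimum total 15), scaled by TMM and compared by glmQLFit (robust) and glmQLFTest, 2-sided and with no block. Adjustment was by Benjamini-Hochberg over 15886 genes, with a threshold of 0.05. Standard errors came from the F statistic and intervals (95%) from the t quantile. The fit was run on simulated counts with few changed genes and independent noise. That setting differs from these data, where 43.2% of genes tested were called, so it does not give the error rate here. TPM was computed from counts and gene lengths in the files. Ratios of overexpressing to empty-vector cells were higher in TPM than in TMM-scaled CPM, so differences of single genes between groups were taken from CPM. Shares and ratios among related genes were taken from TPM, and the sums of Ezh and class IIa genes were compared on both scales. Alternatives were DESeq2 1.42.0, voom in limma 3.58.1, other scalings and filters, replicate number as a block, and each library left out.

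The common biological coefficient of variation was 9.42%. Chi-square divided by its degrees of freedom came to 28.5 for the overexpressing pair and 20.0 for the empty-vector pair, so none was a copy. Totals ranged between 36461091 and 51537847 fragments. At most 0.642% of the 50-base windows of any regulator were shared with other genes.

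Named genes were Cebpb, the 10 regulators, up to 3 genes with the smallest p in each of 20 context lists of 224 genes (any gene of lists of 7 or fewer could be named), the 2 most abundant genes of each list of another cell type, and the 3 nearest profiles of Hdac7 and Smyd1. Smarca4, Smarcd1, Suz12, Eed, Epop, Kdm6a, Kdm6b, Hdac1, Camk2a, Camk1d, Sik2, Prkd1, Prkd2, Myod1, Des and the markers near 0 were chosen after their values were seen. Promoter windows of 300 bases are from RefSeq (GRCm38.p6). The E2F letters were added after the other motifs. The values of 1 gene counted in the lists are not reported here.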

Additional observations from a re-analysis of the deposited data

How the results depend on the processing

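Over all genes, 6864 were called, against 7677 with replicate number as a block, and 4005 to 7414 when each library was left out in turn (2169 to 3712 higher and 1836 to 3702 lower), the lowest of each without empty-vector replicate 2. The deviations of libraries with the same number correlated at 0.186, over 2 pairs that the labels do not tie together, so they were not treated as pairs. The block changed the call of none of the 10 regulators. Among the partner genes given above, Mef2c did not pass with the block (adjusted p = 0.0522), and Smarcd1 did (0.00843). All 10 kept their direction under the 12 alternatives, and Ezh2, Hdac7, Hdac9, Prmt5 and Smarcd3 also kept their call. Smyd1 ranged from -1.61 to -0.89 and Ezh1 from 0.22 to 0.51 with 1 library left out, Smyd1 losing its call without empty-vector replicate 1 (-1.24) or 2 (-1.18) and Ezh1 without empty-vector replicate 2. Carm1 gained one with library sizes alone (0.23). Regulators that rose numbered 1 to 2 with 1 library left out. The summed class IIa level was 1.11 times as high on the CPM scale, against 1.29 on the TPM scale. Of the listed partner and marker genes 124 were called, and 73 to 129 with 1 library left out; 427 of 480 counts per list and direction stayed within 1.5 times. Dropping a library leaves 1 in a group, assumed to vary like the other group. The share of calls that were higher was 51.6%, and 58.0% with library sizes alone; the cause of these shifts was not tested.

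Genes near 0 that never passed changed sign. With 1 library left out, Kdm6a ranged from -0.039 to 0.071, Kdm6b from -0.028 to 0.014, Vwf from -0.085 to 0.47 and Acta2 from -0.27 to 0.073, and Kdm6b was at 0.049 with library sizes alone. Kdm6a was also below 0, at -0.012, without empty-vector replicate 2. Acta2 is the most abundant smooth muscle marker. Each regulator had at least 330 fragments in every library, and the precision of the small differences of Hdac4, Hdac5 and Carm1 is set by 2 libraries in each group.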
